A study of Mus musculus with 55 samples.

Results

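The 9 transcription factor genes of the pancreatic islet other than the core β cell set were followed here: Rfx6, Rfx3, Foxa2, Insm1, Mnx1, Glis3, Hnf4a, Pax4 and Myt1. They were taken as a list by symbol, 9 of the 47937 genes in the table of counts, and all 9 were found on the GRCm38 mouse genome. RNA-seq was made from hand-picked, cultured islets of C57B6/J mice, male by the study's methods, labelled wild type (WT), heterozygous (HET) or knockout. Knockout mice (βEedKO) were homozygous for a floxed Eed allele and carried RIP-Cre, driven by the insulin promoter; whether WT and HET mice carried the Cre is not given in the sources used here. Eed is a core subunit of Polycomb repressive complex 2 (PRC2), which writes H3K27me3. At 8 weeks of age there were 3 WT, 3 HET and 3 βEedKO libraries, and at 25 weeks 3 WT, 2 HET and 2 βEedKO libraries, 16 in all. RIP-Cre acts in β cells, so the other cells of these whole islets keep Eed. Each 25-week βEedKO library pooled islets of several animals, more than the other libraries did. Total counts ran from 4645393 to 22925359 per library.

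These factors sit around the core β cell regulators Pdx1, Nkx6-1 and Mafa. Insm1, Rfx6, Myt1 and Pax4 are switched on in endocrine progenitors downstream of Neurog3, and the first 3 stay on in adult islet cells, while Pax4 is known mainly from development. Foxa2 is a forkhead pioneer factor that opens chromatin at Pdx1 and at channel genes of the β cell, Mnx1 is a homeodomain factor that holds β cells in their fate, Glis3 is a zinc-finger activator of the insulin gene, Hnf4a is a nuclear receptor whose mutation causes inherited diabetes, and Rfx3 drives cilium genes.

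The start site state of each gene came from a segmentation of WT islet chromatin, in which lettered states were assigned to 200-base bins from histone marks and DNA methylation, among other tracks. States A and B mark active starts, C their flanks, D to J enhancers and transcribed regions, K to M bivalent chromatin (active and Polycomb marks together), and N to P Polycomb-repressed chromatin. The 5′ ends of Rfx6, Rfx3, Foxa2, Insm1, Mnx1 and Glis3 lay in state A and that of Hnf4a in state B, so 7 of the 9 had an active start. State A held 40.5% and state B 18.2% of the protein-coding genes tested for expression. Myt1 began in state C, with further annotated starts downstream in state B. Pax4 stood alone in state N, which covered 79.1% of its gene body.

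The active segments around the starts were long. The unbroken run of states A to C measured 5200 bases at Insm1, 4600 at Foxa2, 3600 at Rfx6, 3200 at Glis3, 2800 at Rfx3 and 2400 at Mnx1, against a median of 1200 bases over the 9332 coding genes that have such a run. Those of Insm1 and Foxa2 were at percentiles 98.6 and 98.1 of those genes, and those of Hnf4a and Myt1, 1400 bases each, at percentile 62.5. Insm1, a gene without introns, lay wholly in A (54.2%) and B (45.8%), and Foxa2 likewise (28.6% and 71.4%). Mnx1 differed in its body: 44.1% of it was in the bivalent state L, although its start was active. Within 10 kb of the start, states K to O took up 77.0% of the sequence at Pax4, 43.0% at Foxa2, 40.8% at Rfx3, 37.0% at Hnf4a, 33.7% at Mnx1 and 8.0% or less at Rfx6, Myt1, Insm1 and Glis3, and the median of 20445 coding genes was 24.0%. State P was left out of these shares. It filled the outermost upstream bins at Glis3 and also occurred at Foxa2 and Pax4.

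**Figure D1:**
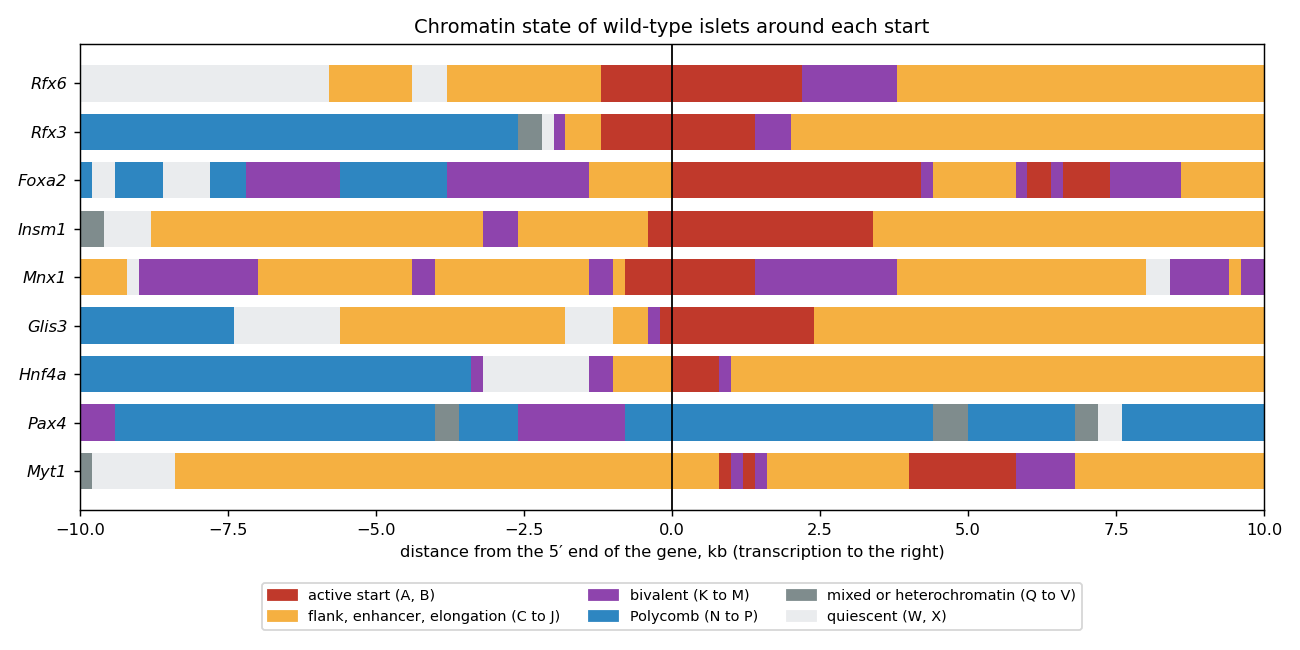
Chromatin state in WT islets within 10 kb of the 5′ end of each gene, in 200-base bins, with transcription running to the right and colours grouping the states. An active segment (red) covers the start of 7 genes, that of Myt1 lies downstream of it, and the start of Pax4 lies in Polycomb chromatin (blue).

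Promoter sequences are given for Mnx1, the member that passed the test at 25 weeks, and, chosen after the values were seen, for the 2 starts of Hnf4a, which differ in state, and for Foxa1, the relative of Foxa2 described later. Each is the 250 bases before a RefSeq start on GRCm38.p6, read 5′ to 3′ along the gene, and the capitals mark CG dinucleotides. Mnx1 is at chr5:29478471-29478720 on the minus strand, Hnf4a at chr2:163506607-163506856 (upstream start, the pancreatic promoter) and chr2:163546905-163547154 (downstream start, the liver-type promoter) on the plus strand, and Foxa1 at chr12:57546112-57546361 on the minus strand.
Mnx1: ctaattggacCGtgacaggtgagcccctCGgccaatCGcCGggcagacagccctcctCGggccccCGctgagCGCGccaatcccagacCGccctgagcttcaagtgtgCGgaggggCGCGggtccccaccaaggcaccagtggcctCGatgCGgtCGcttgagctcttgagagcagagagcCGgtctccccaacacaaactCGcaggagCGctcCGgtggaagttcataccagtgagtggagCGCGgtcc
Hnf4a upstream: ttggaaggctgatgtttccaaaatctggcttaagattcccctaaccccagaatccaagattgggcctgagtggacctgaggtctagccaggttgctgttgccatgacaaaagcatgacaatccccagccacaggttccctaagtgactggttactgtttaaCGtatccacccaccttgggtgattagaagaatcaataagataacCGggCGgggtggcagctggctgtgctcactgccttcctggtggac
Hnf4a downstream: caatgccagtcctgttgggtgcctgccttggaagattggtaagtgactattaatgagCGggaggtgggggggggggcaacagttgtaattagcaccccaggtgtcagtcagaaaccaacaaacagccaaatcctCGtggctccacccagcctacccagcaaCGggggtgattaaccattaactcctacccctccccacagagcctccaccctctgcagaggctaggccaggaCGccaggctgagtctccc
Foxa1: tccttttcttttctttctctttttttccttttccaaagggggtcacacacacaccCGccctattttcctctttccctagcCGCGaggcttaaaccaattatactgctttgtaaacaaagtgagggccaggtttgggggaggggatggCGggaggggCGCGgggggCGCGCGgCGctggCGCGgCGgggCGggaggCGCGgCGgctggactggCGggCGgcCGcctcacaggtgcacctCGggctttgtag
The Mnx1 promoter held 21 CG dinucleotides, percentile 85.2 among 32851 RefSeq promoters, and its start was in state A. Foxa1 also held 21, but this start was in the bivalent state L. The upstream start of Hnf4a, with 3 CG, lay in the active state B and the downstream start, with 4 CG, in the transcribed or cis-regulatory state E. Of 6 motifs searched on both strands (TGTTTAC of Foxa factors, GTTGCC and GTTACC of Rfx factors, CAGATG bound by Neurod1 and Neurog3, TAATTA of homeodomain factors and CAAAGTCCA of Hnf4a), the Mnx1 promoter held none. Both Hnf4a promoters held GTTGCC, present in 10.4% of all promoters, the downstream one also TAATTA, in 4.84%, and the Foxa1 promoter held TGTTTAC, in 3.17%. Of the other members with an entry in that table, the promoters of Rfx6, Rfx3, Foxa2 and Glis3 held none of the 6, and 1 of the 3 Myt1 promoters held TGTTTAC at 2 places. Insm1 and Pax4 had no entry.

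Expression levels were compared between genes per length, as RPKM, reads scaled to exon length and library size. In 25-week WT islets Insm1 (53.4 ± 4.65, SD, n = 3) and Rfx6 (51.4 ± 5.40) were the most abundant and did not differ beyond their spread. Foxa2 followed at 25.4 ± 7.18, below both in every library. Myt1 (14.7 ± 5.09), Hnf4a (11.8 ± 6.67), Glis3 (9.98 ± 3.37) and Mnx1 (7.44 ± 0.652) overlapped each with the next, and Rfx3 came last of the expressed members at 4.04 ± 1.35. Insm1 was at percentile 97.1 of 15571 coding genes and Rfx3 at percentile 53.7. The same order ran through 25-week HET islets. In 25-week βEedKO islets Rfx6 (17.8 ± 3.61, n = 2), Foxa2 (17.7 ± 4.63) and Hnf4a (16.4 ± 6.94) had ranges overlapping each with the next, and Mnx1 (2.42 ± 0.692) stood last of the expressed members, below Rfx3 (3.07 ± 0.656) by less than their spread.

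Pax4 was not detectable at this depth. It had 0 reads in 12 of the 16 libraries and 1 read in each of the other 4, namely WT replicate 4 and βEedKO replicate 5 at 8 weeks and βEedKO replicates 2 and 3 at 25 weeks. No library reached 3 reads, the limit that a count of 0 allows, so no fold change is given, and Pax4 did not pass the filter on low counts. The other 8 members passed it. In all libraries the levels that follow are CPM, counts scaled to library size with TMM factors, and fold changes are on the log2 scale from edgeR's quasi-likelihood test, with p adjusted by Benjamini-Hochberg over all 18685 genes tested.

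**Figure D2:**
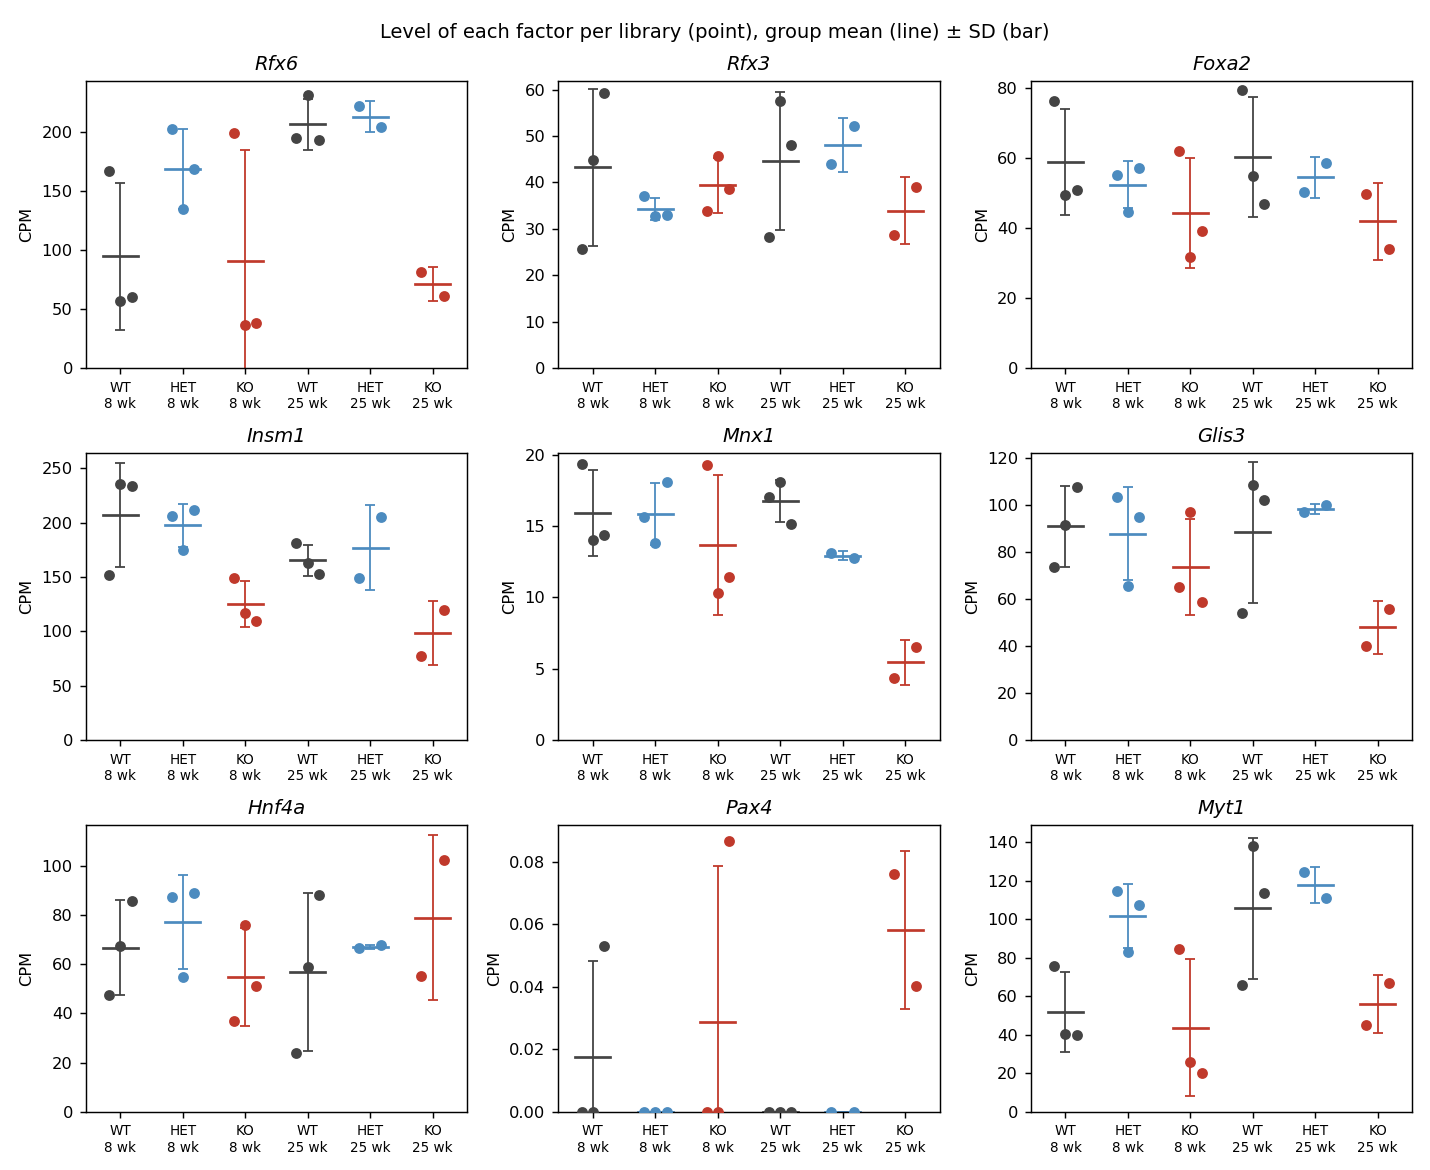
Level of each gene in CPM (vertical axes differ between panels and start at 0) in the 6 groups; points are libraries, lines group means and bars ± SD. Mnx1 in the 2 βEedKO libraries at 25 weeks, 4.34 and 6.54 CPM, lies below all other libraries, and Rfx6 and Myt1 split into a high and a low set at 8 weeks in WT and βEedKO; a bar that would pass below 0 is cut there, and each Pax4 point above 0 is 1 read.

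At 25 weeks the comparison of βEedKO with WT asked which of these factors differ in islets whose β cells lack Eed. Mnx1 fell and was the 1 member of 8 called, where 2.02% of all genes were called lower and 4.58% higher. Its level was 17.0, 18.1 and 15.2 CPM in WT, 13.1 and 12.7 in HET and 4.34 and 6.54 in βEedKO. Every βEedKO library lay below every other library of either age, and the counts behind the 2 were 57 and 162 reads. The log2 fold change was -1.67 (SE 0.33, adjusted p = 0.0139), 31.4% of the WT level. The call did not hold when any 1 of 3 libraries was left out: without βEedKO replicate 2 the value was -1.43 (adjusted p = 0.131), without βEedKO replicate 3 -1.99 (adjusted p = 0.0549) and without WT replicate 3 -1.62 (adjusted p = 0.0585). With HET as the control it was -1.25 (adjusted p = 0.0596), and scaled by library size alone -1.35 (adjusted p = 0.159).

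In these bulk islets fewer cells of a type and less RNA per cell cannot be told apart. The 6 β cell markers summed to between 13921 and 17275 CPM in 25-week βEedKO and to between 122952 and 220075 in WT. All 6 had negative log2 fold changes and 5 were called lower, of which Ins1 and Iapp were not called with the replicate block (adjusted p = 0.108 and 0.0963). The 5 α cell markers summed to 11835 and 12471 CPM in βEedKO against 8244 to 9299 in WT, the 6 stromal markers to 240.2 and 357 against 86.9 to 122, and the 5 macrophage markers to 104 and 370 against 75.8 to 148. The 8 acinar markers differed most within the group, 355100 CPM in βEedKO replicate 2 and 11413 in replicate 3. No marker of any list was at 0 throughout a group. Their part in the members' values was not tested. Eed itself averaged 23.2 ± 4.66 CPM in WT, 16.6 ± 0.407 in HET and 14.9 ± 0.954 in βEedKO at 25 weeks (log2 fold change βEedKO over WT -0.69, adjusted p = 0.142), in tissue where other cells keep the gene.

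Rfx6 was as far below WT as Mnx1 but did not pass the test. Its level at 25 weeks was 194, 231 and 193 CPM in WT, 222 and 204 in HET and 81.6 and 61.2 in βEedKO. The groups did not overlap, and βEedKO was at 33.4% of WT. The log2 fold change was -1.58 (SE 0.74, adjusted p = 0.262), with an error set by a fit in which Rfx6 varied several-fold among replicates at 8 weeks. Fitted on the 25-week libraries alone the value was -1.59 (SE 0.25, adjusted p = 0.020), and with the replicate number as a block -1.64 (SE 0.31, adjusted p = 0.0464). The block fit had 2 residual degrees of freedom, and at 25 weeks only replicates 2 and 3 were in both genotypes. Rfx6, which in adult β cells supports insulin secretion genes, was called in 3 of 21 alternative fits: these and the fit without both 8-week replicates 1 given further on.

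Insm1, a zinc-finger repressor that works with Neurod1 and Foxa2 in mature β cells, was the other member below WT without overlap. WT had 181, 163 and 152 CPM, HET 149 and 205, and βEedKO 77.4 and 119. The log2 fold change was -0.81 (SE 0.29, adjusted p = 0.138 in edgeR), so it did not pass. With Mnx1 and Rfx6, 3 of the 8 members had every βEedKO library below every WT library at 25 weeks, where 15.9% of all genes did.

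The other 5 overlapped between the groups. Glis3 was at 54.1 to 109 CPM in WT and 39.8 and 55.9 in βEedKO (log2 fold change -0.94, SE 0.36, adjusted p = 0.162), its lowest WT value coming from replicate 2, the library with the fewest reads. Myt1 was at 65.8, 138 and 113 CPM in WT and 45.3 and 66.6 in βEedKO (-0.98, SE 0.58, adjusted p = 0.392). Foxa2 was at 46.7 to 79.4 CPM against 34.1 and 49.6 (-0.57, SE 0.35), and Rfx3 at 28.3 to 57.6 against 28.8 and 39.0 (-0.46, SE 0.39). Hnf4a alone had a positive value, with 24.0, 58.8 and 88.3 CPM in WT and 55.2 and 103 in βEedKO (0.41, SE 0.51, adjusted p = 0.728). Its WT libraries covered a wider range than the difference. Without βEedKO replicate 3 it was -0.10, and with the replicate number as a block it was called higher at 0.94 (SE 0.18, adjusted p = 0.0462). The block leaves WT replicate 4, the highest WT value, without a βEedKO partner. Its estimate at 25 weeks thus rests on replicates 2 and 3, in a fit with 2 residual degrees of freedom. Across the 8, 7 values were negative and the median was -0.88, against a median of 0.03 over all genes.

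The 7 core β cell factors, all with a start in state A like 6 of the members, are given for comparison, and the difference between the lists was not tested. At 25 weeks all 7 had negative values, with a median of -1.97, and 5 were called lower: Mafa (-3.76), Nkx6-1 (-3.48), Pdx1 (-1.99), Pax6 (-1.97) and Isl1 (-1.58). Isl1 was called in 11 of 21 alternatives, and leaving out any of 8 single libraries (βEedKO replicates 2 and 3 and the 3 WT at 25 weeks, βEedKO replicate 5 and WT replicates 3 and 4 at 8 weeks) gave values from -1.69 to -1.44 with adjusted p from 0.0545 to 0.228. Mafa was not called without 25-week βEedKO replicate 2 (-3.38, adjusted p = 0.163), βEedKO replicate 3 (-4.33, 0.104), WT replicate 3 (-3.55, 0.0684) or WT replicate 4 (-3.64, 0.0580), and Nkx6-1 (-3.20, 0.0758) and Pdx1 (-1.79, 0.0849) were not called without βEedKO replicate 2. Neurod1 was at -1.39 (adjusted p = 0.0614) and Nkx2-2 at -1.03 (adjusted p = 0.202). Mnx1 thus lay between Pax6 and Isl1, and Rfx6 next to Isl1. Of the 6065 tested coding genes that start in state A, 2.95% were called lower and 0.46% higher.

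**Figure D3:**
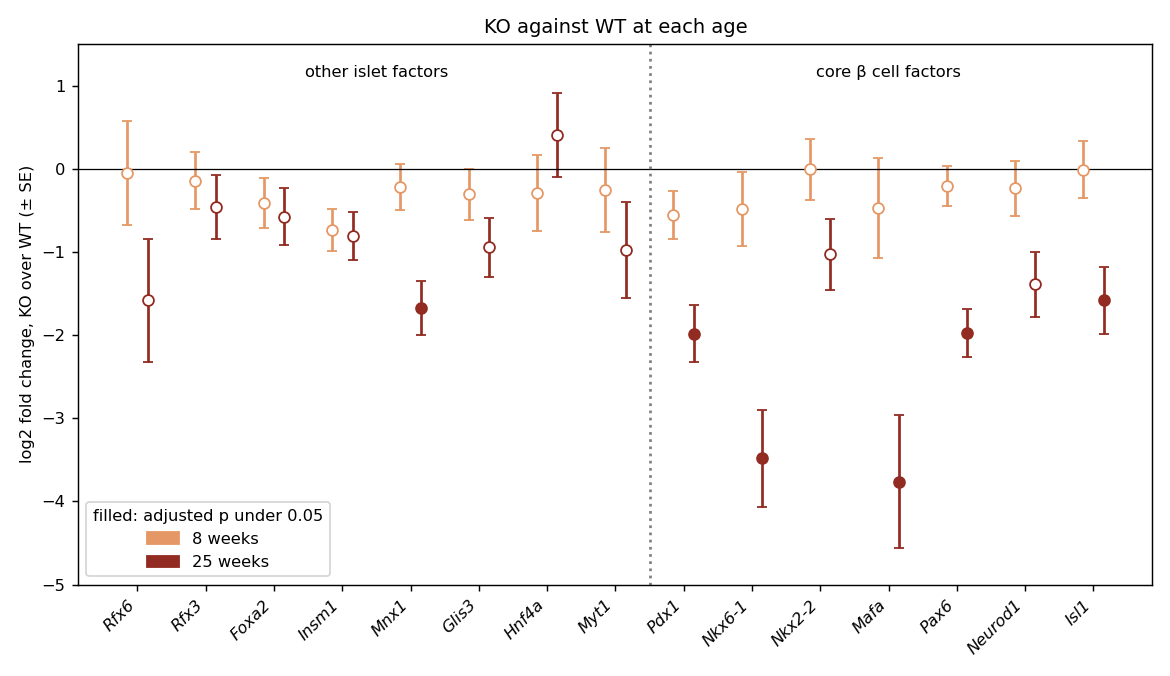
Log2 fold change of βEedKO (KO) over WT ± SE for 8 members (left) and the 7 core β cell factors (right) at 8 and 25 weeks; filled points have an adjusted p under 0.05 by edgeR. At 25 weeks 1 member (Mnx1, -1.67) and 5 core factors are filled, and at 8 weeks none is.

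Among 16 relatives of the members in the same gene families, 13 were tested and Foxa1 alone was called. Foxa1 is a forkhead factor that binds the same motif as Foxa2, and its GENCODE 5′ end, upstream of the RefSeq start, lay in the bivalent, H3K27me3-high state M. At 25 weeks it had 0, 5 and 4 reads in WT, 4 and 0 in HET, and 137 and 754 in βEedKO, or 10.4 and 30.4 CPM. It rose by 6.12 on the log2 scale (SE 1.21, adjusted p = 0.0149), a fold that rests on very few control reads. Foxa1 was not called without βEedKO replicate 3 (5.18, adjusted p = 0.0897), WT replicate 3 (6.50, 0.0696) or WT replicate 4 (6.24, 0.0702). At 8 weeks Foxa1 had 0.444, 1.16 and 1.11 CPM in WT and 0.332, 9.28 and 6.14 in βEedKO (2.52, SE 0.96, adjusted p = 0.516), replicate 1 staying at the WT level. Of the 822 tested coding genes that start in state M, 27.0% were called higher. The Glis family relative Glis1 had 0.436 to 1.20 CPM in WT and 4.57 and 2.91 in βEedKO (1.96, SE 0.68, adjusted p = 0.128), and St18, of the Myt1 family, 101 to 187 against 70.9 and 127 (-0.72, SE 0.34, adjusted p = 0.271). Insm2, Rfx4 and Rfx8 had too few reads to be tested.

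Of 10 β cell genes known as targets of these factors, 9 had negative values at 25 weeks, with a median of -2.68, and 0 were called higher. The 5 called lower were Ins1 (insulin, -3.85), G6pc2 (glucose-6-phosphatase subunit, -3.63), Slc30a8 (zinc transporter, -3.38), Slc2a2 (glucose transporter, -2.89) and Hadh (-2.47). Hadh is an enzyme of fatty acid oxidation known as a Foxa2 target. Ins1 was not called with the replicate block (-4.02, adjusted p = 0.108), nor without βEedKO replicate 2 (-3.65, 0.0815) or 3 (-4.10, 0.0536), and Slc2a2 was not called without the same libraries (-2.96, 0.0998, and -2.83, 0.118). G6pc2, Slc30a8 and Hadh were called in all 21 alternatives. Abcc8, a channel subunit, was at -1.41 (adjusted p = 0.119). Of 10 cilium genes, known as Rfx targets, Ift88 alone was called lower (-1.73, SE 0.19, adjusted p = 0.000966). It had 51.0, 45.3 and 48.7 CPM in WT and 14.5 and 15.7 in βEedKO, and was called in all 21 alternatives. The cilium list had a median of -0.07. Of 18 other endocrine and pancreatic factors 6 were called: 5 rose and 1 fell. The largest changes were those of Pou3f4 (5.02), Mlxipl (-3.08), a glucose-responsive factor, Sox9 (2.98), known from duct cells and progenitors, and Irx1 (2.04). Each lost its call without 25-week βEedKO replicate 3 (Pou3f4 4.70, adjusted p = 0.0972; Mlxipl -3.51, 0.120; Sox9 2.80, 0.107; Irx1 1.71, 0.0969) and the first 3 also without βEedKO replicate 2 (5.25, 0.0521; -2.75, 0.20; 3.12, 0.0628). Without WT replicate 3 Pou3f4 (4.37, 0.0801), Mlxipl (-3.02, 0.0798) and Sox9 (2.56, 0.0696) were not called, without WT replicate 4 Mlxipl (-3.03, 0.0719) and Irx1 (1.96, 0.0514), and without WT replicate 2 Sox9 (2.72, 0.0522). Pou3f4 was not called with the block either (7.46, 0.0747). At 8 weeks no gene of these lists was called.

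At 8 weeks the same comparison was made in younger mice. None of the 8 members was called by edgeR, where 0.434% of all genes were, and DESeq2 called 0 members and 393 genes. In edgeR 1 member and 1470 of all 18685 genes had an unadjusted p under 0.05. That member was Insm1, with 152, 236 and 234 CPM in WT and 149, 117 and 109 in βEedKO. The ranges touched without overlapping, 152 against 149, and 4.86% of all genes had every βEedKO library below every WT library. The log2 fold change was -0.74 (SE 0.25, adjusted p = 0.426 by edgeR), about the size seen at 25 weeks, and the difference between the ages was -0.07 (SE 0.38). Mnx1, which fell at 25 weeks, was at 19.3, 14.0 and 14.4 CPM in WT and 19.3, 10.3 and 11.4 in βEedKO at 8 weeks (-0.22, SE 0.27). All 8 values were negative, with a median of -0.27, but with scaling by library size alone those of Rfx6 (0.23), Rfx3 (0.02), Myt1 (0.01) and Mnx1 (0.00) were no longer negative. That scaling also moved the median of all genes, from 0.00 to 0.20.

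Rfx6 and Myt1 separated the 8-week libraries by a feature other than genotype. Rfx6 had 166, 56.5 and 60.4 CPM in WT and 199, 36.3 and 37.8 in βEedKO, and Myt1 75.9, 40.2 and 39.7 in WT and 84.7, 25.9 and 20.2 in βEedKO. In each genotype replicate 1 was high and the other pair low. In HET the 3 values were 202, 135 and 168 CPM for Rfx6 and 115, 82.9 and 107 for Myt1, all above the low libraries. The Rfx6 value of 135 CPM lay below both high libraries. The 4 low libraries were also those in which 10 interferon-induced genes, listed after the data were seen, summed to between 3344 and 5016 CPM, against 57.4 to 150 in the other 12, and in which the immediate-early gene Fos was at 53.7 to 71.0 CPM against 166 to 3025. Replicate 1 exceeded the mean of the others 2.85-fold in WT and 5.37-fold in βEedKO for Rfx6, and 1.90-fold and 3.67-fold for Myt1. It was also higher for Foxa2 (1.52-fold and 1.75-fold) and Mnx1 (1.36-fold and 1.77-fold). Replicate 1 was lower than the mean of the others for Rfx3 (0.49 of it in WT and 0.81 in βEedKO), Hnf4a (0.62 and 0.58) and Glis3 (0.74 and 0.84), and for Insm1 it was 0.65 in WT but 1.31 in βEedKO. The labels do not name this split, and its part in the values was not tested.

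Within each set the genotypes compared as follows. In replicate 1 of each genotype, βEedKO over WT was 1.19 for Rfx6, 1.12 for Myt1, 1.00 for Mnx1 and 0.98 for Insm1. In the other libraries, 2 of each genotype, it was 0.63, 0.58, 0.77 and 0.48. For the remaining members, replicate 1 first, it was 1.32 and 0.81 for Rfx3, 0.81 and 0.71 for Foxa2, 0.89 and 0.78 for Glis3, and 0.78 and 0.83 for Hnf4a. With both 8-week replicates 1 left out, an alternative added after the data were seen, no member was called at 8 weeks (Rfx6 -0.66, adjusted p = 0.196; Insm1 -1.05, adjusted p = 0.0974), and at 25 weeks Rfx6 (-1.60, adjusted p = 0.00201), Insm1 (-0.82, adjusted p = 0.0357) and Mnx1 (-1.69, adjusted p = 0.00358) were called. At 25 weeks the 2 βEedKO libraries had low Rfx6 and, by interferon-induced genes (84.9 and 150 CPM), were outside the high set. Their Fos was at 718 and 166 CPM, against 529 to 3025 in 25-week WT. The part of this split in their values was not tested.

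**Figure D4:**
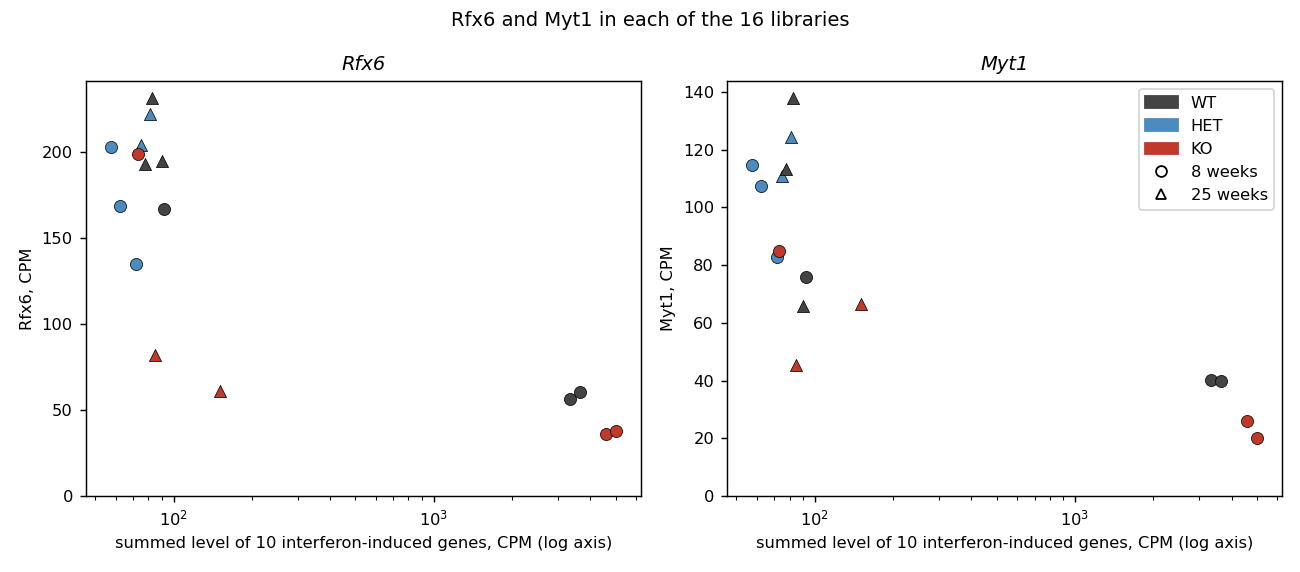
Rfx6 (left) and Myt1 (right) in CPM against the summed CPM of 10 interferon-induced genes (log axis) in the 16 libraries, by genotype (colour) and age (circles, 8 weeks; triangles, 25 weeks). The 4 libraries at 3344 CPM or more, 2 WT and 2 βEedKO of 8 weeks, hold the lowest Myt1 values, and their Rfx6 lies at 36.3 to 60.4 CPM, just below the 25-week βEedKO libraries.

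The difference between the ages in the effect of the knockout was not called for any member, with 0.198% of all genes called. Mnx1 had the largest departure relative to its error, -1.45 (SE 0.42, adjusted p = 0.293 in edgeR). It was the 1 member with an unadjusted p under 0.05, where 1450 of all 18685 genes had one. DESeq2 called 0 members and 341 genes. Rfx6 was at -1.53 (SE 0.95), Glis3 at -0.63 (SE 0.47) and Hnf4a at 0.69 (SE 0.68). The fall of Mnx1 at 25 weeks is therefore not shown to be specific to that age.

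Within βEedKO, 25 against 8 weeks, no member was called, where 1.5% of all genes were. Mnx1 was lower in every 25-week library (-1.37, SE 0.32, adjusted p = 0.0730 in edgeR). It was the 1 member with an unadjusted p under 0.05, where 2627 of all 18685 genes had one. It was also the 1 member DESeq2 called, among 943 genes called by that test. Within WT, 25 against 8 weeks, edgeR called 0.0% of genes and 0 members. No member had an unadjusted p under 0.05, where 1898 genes did, and DESeq2 called 0 members and 137 genes. Rfx6 (1.15, SE 0.63) and Myt1 (1.04, SE 0.51) had the largest values. Within βEedKO the corresponding values were -0.38 (SE 0.70, adjusted p = 0.834) for Rfx6 and 0.32 (SE 0.56, adjusted p = 0.827) for Myt1. With the 8-week replicates 1 left out, Rfx6 was 1.84 (adjusted p = 0.00252 by edgeR) and Myt1 1.43 (adjusted p = 0.0307) in WT. In βEedKO they were then 0.89 (adjusted p = 0.0275) and 1.22 (adjusted p = 0.0481), so that the direction of Rfx6 within βEedKO turned and both genes were called. The 8-week libraries left in that fit, at 3344 to 5016 CPM of interferon-induced genes, were all in the high set, and no 25-week library was. Age and that set therefore cannot be told apart in these values.

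HET islets, labelled heterozygous, were also set against WT. Whether their β cells had lost 1 Eed allele is not established here, since their Cre status is not given. Eed in HET was at 17.1 to 20.5 CPM at 8 weeks, against 23.9 to 33.1 in WT and 13.4 to 14.9 in βEedKO. At 25 weeks it was at 16.3 to 16.9 CPM, against 19.3 to 28.3 and 14.2 to 15.6. The cause of these values was not tested. In edgeR 0.0% of genes and 0 members were called at 8 weeks, and again 0.0% and 0 at 25 weeks. No member had an unadjusted p under 0.05 in edgeR at either age, where 2743 genes did at 8 weeks and 210 at 25 weeks. DESeq2 called 0 members at either age, and 413 genes at 8 weeks and 3 at 25 weeks. At 25 weeks the members' values lay between -0.37 (Mnx1, SE 0.29) and 0.23 (Hnf4a, SE 0.46), with a median of 0.10. At 8 weeks Myt1 (0.97, SE 0.47) and Rfx6 (0.83, SE 0.57) were the highest. With WT replicates 3 and 4 left out, so that a lone WT library was taken to vary like the rest, they were 0.42 and 0.01.

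Over the 16 libraries the members did not follow a common course. On the log2 CPM scale Rfx6 and Myt1 had a Pearson correlation of 0.93, Glis3 and Rfx3 0.71, Insm1 and Mnx1 0.71, and Foxa2 and Hnf4a -0.59. These describe libraries that differ in genotype, age, interferon-induced genes and acinar content, and carry no test. The genes most like each member in this measure were Zfp174 (0.99), 1810008I18Rik (0.98) and Mlh3 (0.97) for Rfx6, and Mbd6 (0.97), Phf21a (0.97) and Kantr (0.97) for Myt1. For Mnx1 they were Slc2a5 (0.97), Gm29054 (0.95) and the core factor Nkx6-1 (0.95), and for Insm1 Prkacb (0.96), Slc22a23 (0.95) and Slc16a10 (0.93). For Glis3 they were Socs7 (0.95), Zfp516 (0.94) and Specc1l (0.93), for Rfx3 Tanc2 (0.94), Tmem170b (0.92) and Mllt6 (0.92), for Foxa2 Fam187b (0.92), Samd10 (0.91) and Trmt1l (0.90), and for Hnf4a Wee1 (0.91), Mob3a (0.91) and Abr (0.90).

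The values at 25 weeks were set beside 21 alternative fits. Mnx1 was called in 16 of the 21, with values from -1.99 to -1.25. Rfx6 was called in 3, with values from -1.83 to -1.39, Insm1 in 2 and Glis3 and Hnf4a in 1 each. Foxa2, Rfx3 and Myt1 were called in none, and Hnf4a was the 1 member whose sign changed.

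**Figure D5:**
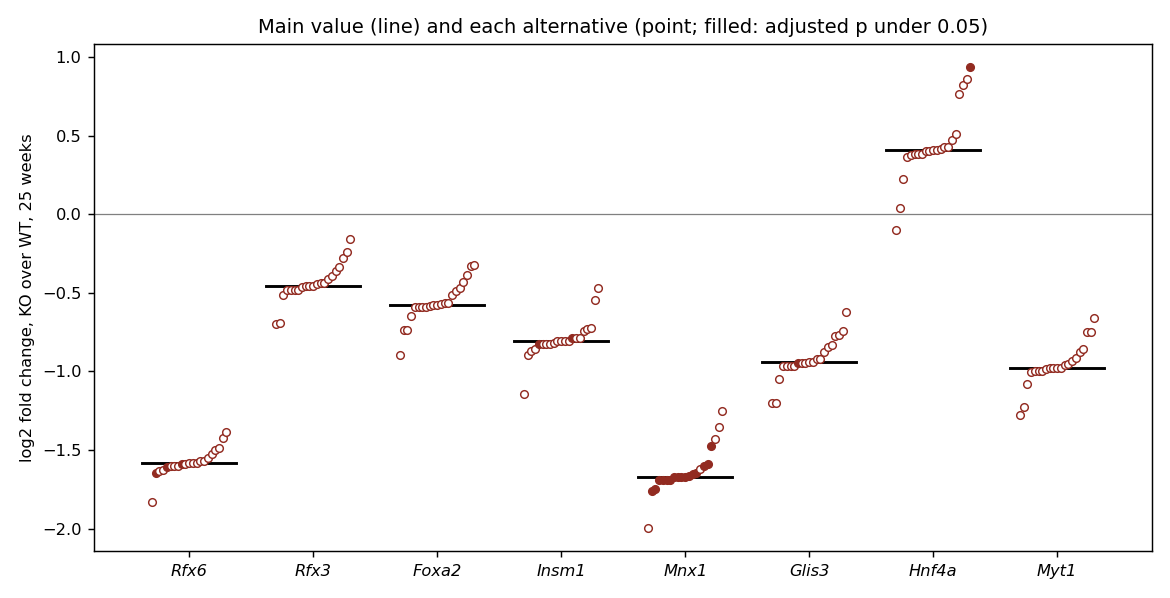
Log2 fold change of βEedKO over WT at 25 weeks for 8 members: the line is the value given in the text and each point 1 of 21 alternatives (other scalings, filters, tests and controls, a replicate block, libraries left out), filled where the adjusted p is under 0.05. Mnx1 is filled in 16 of 21, Rfx6 keeps its size in all 21 with 3 filled, and the other 6 members are filled in at most 2.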

How the data were processed

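The authors deposited raw counts of read pairs per gene for 16 islet libraries (TruSeq RNA, paired-end), which by the study's methods and the submitters' processing notes were made with TopHat2 2.0.13 and featureCounts of Subread 1.5.0-p1 on GRCm38. The strand setting was not given in the sources used here, but no gene overlapping a member shared an exon base with it in the annotation. Names, lengths and 5′ ends came from GENCODE M21, in which 47224 of the 47937 gene identifiers were found. The chromatin state letters were the authors' own segmentation. No count column was left unassigned to a library. Single-cell, human and other tracks of the series were not analysed here.

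Genes with low counts were removed by edgeR's filterByExpr, libraries scaled by TMM factors and βEedKO compared with WT at each age by edgeR 4.0.16 quasi-likelihood tests (R 4.3.3) on the 11 WT and βEedKO libraries together. HET was compared in a fit of all 16 libraries, with 18828 genes tested. Tests were two-sided, and a gene was called at a Benjamini-Hochberg adjusted p under 0.05 over all genes tested. DESeq2 1.42.0, other scalings and filters, other controls, a replicate block and leaving out each library were the alternatives. The code was tested on simulated data. The members and lists were chosen with earlier results of these data known. Members were all given by name, and of each other list the genes called at 25 weeks, or the 4 with the largest change where more than 5 were called. Genes that did not pass are given as values, and those named outside this rule were chosen after their values were seen.

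No 2 libraries of a group agreed within sampling noise. Replicates contained islets of separate animals by the study's methods, some pooled. WT and βEedKO libraries of the same age and replicate number deviated together from their group means. The correlations were 0.457 and 0.163 at 8 weeks and 0.176 and 0.255 at 25 weeks, all over 0.1. The numbers were therefore used as pairs in the replicate block, an alternative, and the main fits did not pair libraries. This use comes from the data, since the labels do not say what a number marks. The value of 0.457 is that of the replicates 1, both outside the interferon-high set. Differently numbered 8-week libraries could correlate as much (WT replicate 3 with βEedKO replicate 5, 0.450, and WT replicate 4 with βEedKO replicate 5, 0.329), and with 2 βEedKO libraries at 25 weeks the values for crossed numbers are the same with the sign turned (-0.176 and -0.255).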

Additional observations from a re-analysis of the deposited data

How the results depend on the processing

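Of 8 members 1 was called at 25 weeks. Scaled by library size alone or against HET the number was 0, and in fits leaving out 1 library it ran from 0 to 1. It was 3 with the replicate block (pairing by number), 3 with WT and HET pooled as control, 2 in the 25-week libraries alone and 3 with both 8-week replicates 1 left out, an alternative chosen after the data were seen. How many of all genes these fits called is not given here, so the counts cannot be read as a result about the members. The block, with 2 residual degrees of freedom, added Rfx6 and Hnf4a and changed no other call of a member. Of 30 genes of all lists called at 25 weeks, 7 were not called with the block (Ins1, Iapp, Krt19, Pcsk2, Pou3f4, Scg2 and Scg3), 19 without βEedKO replicate 2, 20 without βEedKO replicate 3 and 17 without WT replicate 3. For βEedKO at 25 against 8 weeks the number rose from 0 to 1 with DESeq2, which called 943 of all genes where edgeR called 281. Without both 8-week replicates 1 it rose to 3, and for WT from 0 to 2. Without them, age and the interferon-high set cannot be told apart. The cause was not tested.

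Signs changed for members that were not called. At 25 weeks Hnf4a ran from -0.10 to 0.86 when 1 library was left out. At 8 weeks Rfx6 was 0.23 by library size and 0.026 by upper-quartile factors and -1.33 to 0.60 without 1 library, Rfx3 was 0.023 by library size, 0.013 with the block, 0.18 against HET, 0.022 against the pooled control and -0.42 to 0.16 without 1 library, Mnx1 was 0.0021 by library size, and Myt1 was 0.011 by library size and -1.16 to 0.093 without 1 library. For the difference between ages, Insm1 was 0.076 by library size, 0.023 with no filter, 0.23 without both 8-week replicates 1 and -0.42 to 0.20 without 1 library, Foxa2 -0.47 to 0.13 and Myt1 -1.07 to 0.16 without 1 library, and Myt1 0.15 against HET. Library size alone moved the median of all genes from 0.03 to 0.27 at 25 weeks and from 0.00 to 0.20 at 8 weeks. Depth limits Pax4, with at most 1 read per library, and the WT level of Foxa1.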

Other observations

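The other marker lists of the 25-week comparison of βEedKO with WT are given as values. Of 6 duct markers 2 were called higher (median log2 fold change 1.49): Spp1, called in all 21 alternatives, and Krt19, called in 16 and not with the replicate block. Of 6 stromal markers 3 were called higher (median 1.67), but Col1a1 was called in 11, Col1a2 in 10 and Dcn in 12 of 21 alternatives, and none of them without either 25-week βEedKO library. Of 6 pan-endocrine markers Chgb rose in all 21 alternatives, and 3 were called lower (list median -0.91), of which Scg3 was called in 9, Pcsk2 in 6 and Scg2 in 5 alternatives and none with the block. Of 5 α cell markers 1, Irx2, was called higher (median 0.44), in 18 of 21 alternatives. No δ cell (3 genes), PP cell (2), acinar (8), endothelial (5) or macrophage (5) marker was called by edgeR, with medians of 0.04, 0.80, 0.78, 0.65 and 1.13.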
